A study of Mus musculus with 4 samples.

Results

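Genes of NF-kB signalling, with the cytokines and chemokines that NF-kB is known to induce, were followed across 4 treatments of a mouse kidney cell line. The list held 42 genes, chosen by name: NF-kB subunits, IkB proteins, adaptors and kinases, feedback inhibitors, chemokines, cytokines, and adhesion and other target genes. A probe set annotated with that gene alone was matched for 40 of them, and no probe set was matched for Nfkb1 and Traf3. Of the 40, 31 had a mean log2 signal no lower than that of the median probe set, which corresponds to 55.9 signal units, and are described here. Over the whole array 11057 of 18193 measured genes reached this limit. The other 9 (Csf2, Il6, Il1a, Tnf, Icam1, Cxcl2, Il33, Ccl5 and Ccl7) lay below that median, with geometric mean signals from 2.30 to 36.9, and are only counted. Just inside the limit was Il1b, with a geometric mean of 62.4, and just outside it Ccl7, with 36.9.

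NF-kB is a family of dimeric transcription factors that IkB proteins hold inactive in the cytoplasm. Receptors for tumour necrosis factor, interleukin-1 and bacterial products recruit adaptors such as TRAF proteins, MyD88 and IRAK1, the IkB kinase then marks IkB for destruction, and the freed dimers enter the nucleus. There they switch on chemokines, cytokines and adhesion molecules together with their own inhibitors, IkB-alpha and A20 among them. In kidney tubule cells the pathway is known for drawing leukocytes into injured tissue.

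The cells were mDCT, an immortalised mouse line derived from the distal convoluted tubule, and all 4 libraries came from cells transfected with pCSII-3xFLAG-hMR, a plasmid for a FLAG-tagged human MR, the mineralocorticoid receptor through which aldosterone acts on the nucleus. At 48 h from transfection the cells received a pretreatment, and 2 h into it the hormone or its vehicle was added for 3 h. A library each was made from cells given ethanol, aldosterone at 1 nM, aldosterone at 100 nM, and the MR antagonist spironolactone at 5 µM as pretreatment with aldosterone at 100 nM. Untransfected cells and spironolactone without aldosterone were not analysed here. Every difference therefore belongs to cultures transfected with the added receptor, and the antagonist is seen only on top of the hormone. The libraries are called ethanol, 1 nM, 100 nM and spironolactone, and each set of 4 signals follows that order. With 1 library per treatment no difference could be set against replicate error, so no test was possible and every difference is one between arrays.

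Library medians lay between 58.7 and 61.5 signal units, and the mean trimmed by 2% from both ends was 500.0 in every library. Sgk1, a kinase gene that aldosterone is known to induce, had signals of 801, 935, 1810 and 1424, so the 100 nM library held the highest level and the spironolactone library stood between it and ethanol. It was 1 of 4 steroid-response genes listed for reference. Tsc22d3 (711, 703, 1365 and 994) and Per1 (231, 224, 527 and 349) had the same order of those libraries. Fkbp5, with 1315, 1880, 1735 and 1414, was instead highest with 1 nM. The labelled cell type was checked against its markers. Slc12a3, the sodium-chloride cotransporter that defines the distal convoluted tubule, had signals of 3.93 to 17.2, below the median in every library, and 3 of 7 measured distal tubule markers (Pvalb, Trpm6 and Kcnj10) were at or above it. Of 8 epithelial markers 4 were, Pax8 and the kidney cadherin Cdh16 among them. Of 11 leukocyte markers 4 were, including Csf1r and Cd14, while Ptprc, which encodes the leukocyte surface protein CD45, lay between 0.657 and 14.3. Of 6 endothelial markers 1 was, and of 8 fibroblast markers 0 were.

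Before the signals, the promoters show which of these genes carry a kB consensus, the DNA element that NF-kB dimers bind. The 10-base kB consensus was searched on both strands of the 250 bases upstream of each transcript start in RefSeq (GRCm38.p6), and overlapping matches were merged. A match was found in 16 of the 33 listed genes with a window in that table (48.5%), against 2225 of all 27025 genes with a window (8.23%). Among genes above the median signal it was found in 13 of 25 listed genes (52.0%) and in 948 of 8999 genes (10.5%). The list was drawn up to hold known NF-kB targets, so nothing is read from this excess, and a match is a string of letters and not a site shown to be bound. The stretches below belong to 3 chemokine genes, the cytokine gene Csf1 and 3 inhibitor genes that recur in the results, read 5′ to 3′ on the gene's strand, with the match in capitals.
Ccl20, chr1:83116666-83116715, plus strand: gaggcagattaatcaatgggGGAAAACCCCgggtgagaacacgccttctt
Cxcl1, chr5:90891154-90891204, plus strand: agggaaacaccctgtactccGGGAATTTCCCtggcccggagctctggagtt
Cxcl10, chr5:92348963-92349013, minus strand: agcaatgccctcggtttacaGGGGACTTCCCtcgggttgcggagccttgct
Cxcl10, second match, chr5:92349019-92349068, minus strand: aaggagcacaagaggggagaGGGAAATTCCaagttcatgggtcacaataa
Csf1, chr3:107760594-107760643, minus strand: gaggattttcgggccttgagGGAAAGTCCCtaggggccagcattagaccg
Nfkbia, chr12:55492648-55492696, minus strand: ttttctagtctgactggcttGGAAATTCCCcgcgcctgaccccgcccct
Tnip1, chr11:54962967-54963018, minus strand: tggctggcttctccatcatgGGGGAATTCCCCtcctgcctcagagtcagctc
Tnfaip3, chr10:19015506-19015555, minus strand: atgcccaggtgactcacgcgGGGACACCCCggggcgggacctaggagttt
Tnfaip3, second match, chr10:19015411-19015442, minus strand: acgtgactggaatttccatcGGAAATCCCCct
The matches begin and end 71 to 80 bases upstream of the start in Ccl20, 61 to 71 in Cxcl1, 94 to 104 and 150 to 159 in Cxcl10, 20 to 29 in Nfkbia, 145 to 154 in Csf1, 47 to 58 in Tnip1 and 116 to 125 and 3 to 12 in Tnfaip3. The windows of Cx3cl1 and Ptgs2 held no match, which says only that these letters are not in them.

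Of the 31 genes, 17 had their highest signal in the spironolactone library (54.8%), where 24.0% of all 11057 genes had theirs. The ethanol library held the highest signal of 8 and the 1 nM library that of 6, against 27.1% and 23.5% of all genes. In the 100 nM library 0 of the 31 were highest, against 25.5% of all genes. Lowest signals lay mostly in the libraries with aldosterone alone: 12 genes were lowest with 1 nM and 11 with 100 nM, against 26.3% and 25.2% of all genes, 5 were lowest in ethanol against 23.5%, and 3 with spironolactone against 25.0%. The count depended in part on which probe set stood for a gene. With the second brightest probe set 13 genes were highest with spironolactone (41.9%), against 22.4% of all genes, and 4 with 100 nM. In that setting 18 of the 31 had no second probe set at or above the limit and kept their brightest. Among the genes that had one, only Nfkbia and Nfkbie were highest with spironolactone on it. Traf6, Ikbkb, Tnfaip3 and Cxcl1 were highest with 100 nM on theirs. The counts of highest and lowest signals come from 4 single arrays, and this way of counting was chosen after the values had been seen.

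**Figure D1:**
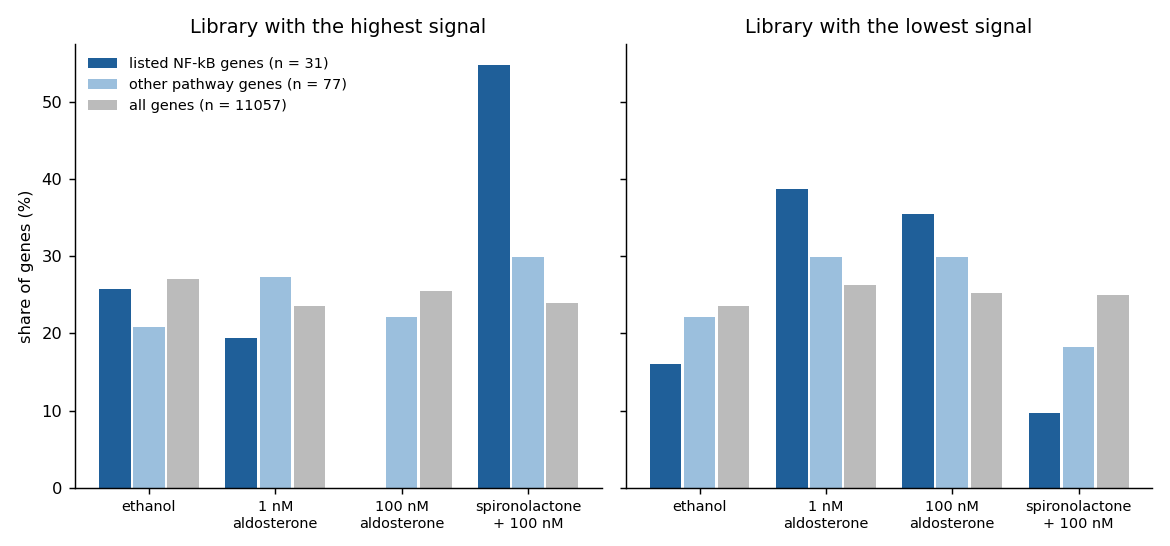
Share of genes, in percent, with their highest (left) or lowest (right) signal in each of the 4 libraries, for the 31 listed NF-kB genes, the 77 other pathway genes and all 11057 genes. The listed genes reach 54.8% for the highest signal in the spironolactone library and 0% in the 100 nM library, while all genes lie between 23.5% and 27.1%.

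The chemokines, secreted proteins that attract leukocytes, were among these genes. All 6 that could be described had their highest signal in the spironolactone library, with a median log2 difference of 0.30 from 100 nM aldosterone and 0.26 from ethanol. With the second brightest probe set 5 of the 6 did, but only Cxcl1 had other probe sets at or above the limit. The rest kept their brightest and could not change. The brighter of the other Cxcl1 probe sets was highest with 100 nM, at 993 against 989 with spironolactone. The dimmer was highest with spironolactone, at 725 against 581 with 100 nM. In bulk RNA, fewer cells making a transcript and less of it per cell cannot be told apart.

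Ccl20, which attracts dendritic cells and lymphocytes through the receptor CCR6, had signals of 212, 195, 145 and 234. The 100 nM library was the low one and the other 3 lay close together, so the log2 difference was -0.55 for 100 nM against ethanol and 0.69 for spironolactone against 100 nM, but 0.14 for spironolactone against ethanol. Ccl2, the main attractant of monocytes, had signals of 1947, 1972, 1782 and 2428. Here the spironolactone library stood above the other 3, by 0.45 against 100 nM and 0.32 against ethanol on the log2 scale. Each of these genes had a single probe set.

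Cxcl1, which attracts neutrophils, had signals of 915, 874, 1094 and 1268. Its level was highest with spironolactone and second highest with 100 nM aldosterone, at log2 differences of 0.47 and 0.26 from ethanol. Its other probe sets stood 0.27 and 0.29 above ethanol with spironolactone, but -0.01 and 0.32 from 100 nM, so the step from 100 nM to spironolactone (0.21 on the brightest probe set) was not shared by all 3.

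Cx3cl1, the membrane-bound chemokine fractalkine, had signals of 129, 137, 119 and 156, the lowest again with 100 nM and the highest with spironolactone, at log2 differences of 0.39 and 0.27 from 100 nM and from ethanol. Cxcl5, another neutrophil attractant, had signals of 80.7, 95.1, 89.1 and 96.1, with ethanol lowest and the other 3 close together. Cxcl10, an interferon-inducible attractant of T cells, had signals of 599, 590, 607 and 640, and its highest level was 1.08-fold its lowest. Cell type markers also differed between these libraries. The 3 distal tubule and 4 epithelial markers at or above the limit all lay below their 100 nM level with spironolactone, with median log2 differences of -0.32 and -0.18. The summed signals of these lists over all measured markers were 267, 374, 331 and 240, and 3864, 3549, 3778 and 3493, both lowest with spironolactone. The epithelial sum is mostly that of Cdh16, which lay only -0.06 from its 100 nM level with spironolactone. Of the epithelial markers below the limit, Krt8 and Cldn7 lay above their 100 nM level, and Cdh1 and Krt18 below it. Of the 4 leukocyte markers at or above the limit, Csf1r, Cd14 and Cd68 were lowest with spironolactone, while Laptm5, with signals of 86.1, 95.1, 78.5 and 98.4, was lowest with 100 nM and highest with spironolactone, as Ccl20, Ccl2 and Cx3cl1 were. The summed leukocyte signal, 2346, 2429, 2409 and 2102, is mostly that of Csf1r and Cd14. The part of these markers in the chemokine values was not tested.

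**Figure D2:**
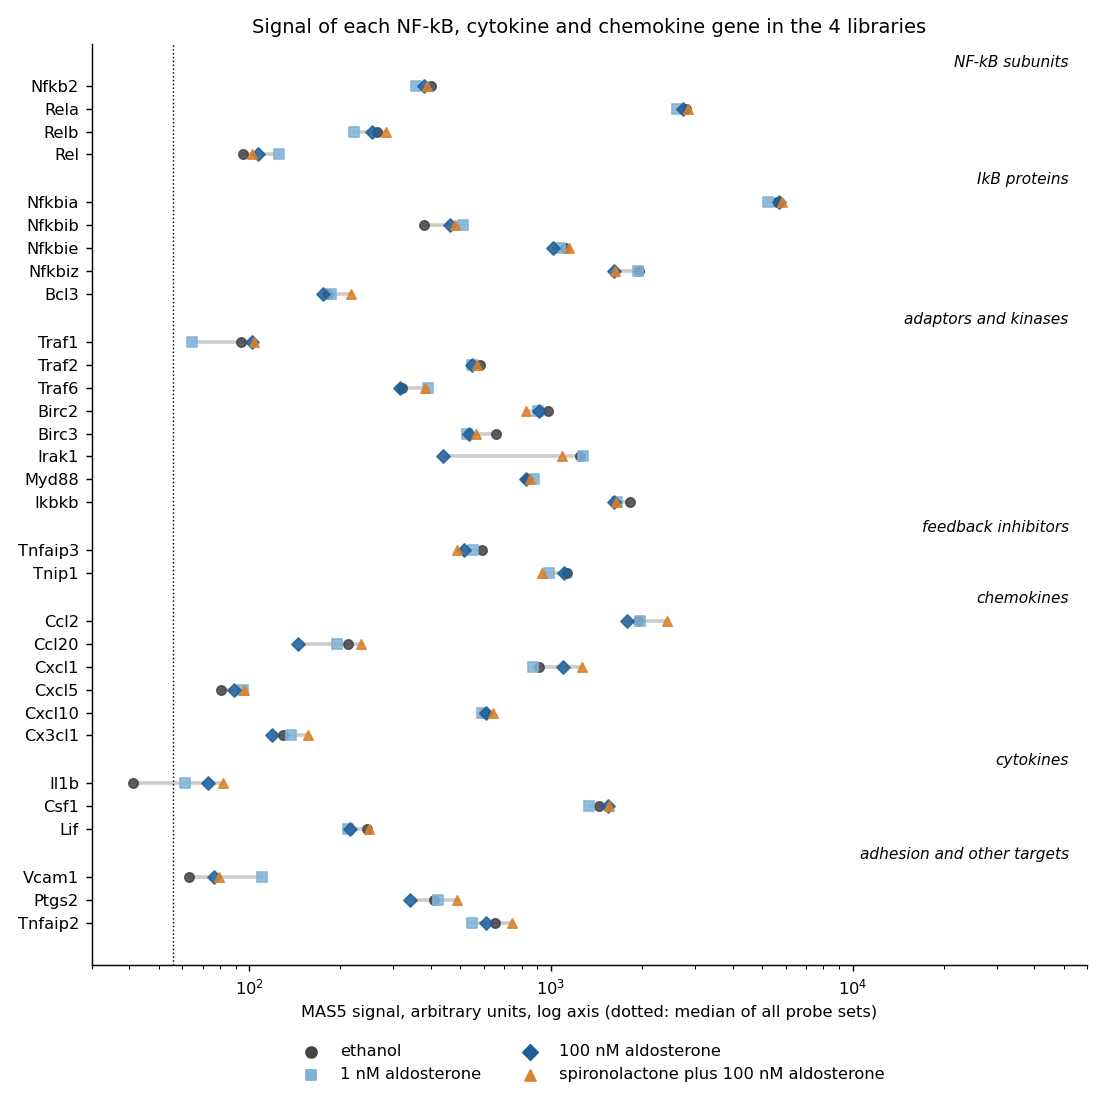
MAS5 signal in arbitrary units (horizontal log axis) of each of the 31 listed genes, grouped by role, with 1 symbol per library, a grey line from the lowest to the highest, and a dotted line at the limit of 55.9. All 6 chemokines have the spironolactone symbol at the right end, and Irak1 has the 100 nM symbol alone at the left, at 439.

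The 3 cytokines described also had their highest signals with spironolactone, where 24.0% of all genes did, by small margins in Csf1 and Lif. Il1b, the inflammatory cytokine interleukin-1 beta, had signals of 41.3, 61.3, 73.0 and 81.9. Its ethanol signal lay under the limit of 55.9 and its other signals not far above it. The log2 differences from ethanol were 0.57 with 1 nM, 0.82 with 100 nM and 0.99 with spironolactone, but with signals under the limit raised to it they were 0.13, 0.38 and 0.55. Csf1, the growth factor of macrophages, had signals of 1445, 1333, 1541 and 1555. Its second probe set, with 304, 383, 311 and 289, was lowest with spironolactone, the third, with 157, 164, 212 and 222, was highest there, and the fourth, with 170, 152, 160 and 168, was highest in ethanol. Lif, a cytokine of the interleukin-6 family, had signals of 245, 213, 215 and 249, with both libraries of aldosterone alone below the other 2.

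Ptgs2, which encodes the prostaglandin-forming enzyme COX-2, had signals of 408, 423, 340 and 488. It followed Ccl20 in having its lowest signal with 100 nM and its highest with spironolactone, a log2 difference of 0.52. A second Ptgs2 probe set gave 0.49 for that comparison and -0.52 for 100 nM against ethanol, where the first gave -0.26, but it stood at -0.03 from ethanol with spironolactone, where the first stood at 0.26. Tnfaip2, induced by tumour necrosis factor, had signals of 651, 546, 610 and 744. Its log2 difference of 0.29 between spironolactone and 100 nM was not shared by a second probe set, at -0.07. Vcam1, an adhesion molecule for leukocytes, had signals of 63.3, 110, 76.6 and 79.3. The 1 nM library was the high one, 0.79 above ethanol on the log2 scale, and a second probe set gave 0.74. That probe set, with 56.1, 93.7, 84.9 and 85.9, instead had ethanol as the low library. It stood 0.60 and 0.61 above ethanol with 100 nM and spironolactone, where the first stood 0.28 and 0.33 above. Between the doses it gave -0.14 for 100 nM against 1 nM, where the first gave -0.52. The ethanol signals of both probe sets lay close to the limit.

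Of the 4 subunits of NF-kB described, Relb and Rel varied by 1.28-fold and 1.31-fold over the libraries, and Rela and Nfkb2 by 1.09-fold and 1.12-fold. Rela, which encodes p65, the main activating subunit, had signals of 2810, 2614, 2744 and 2854. Nfkb2, the precursor of p52, had signals of 401, 358, 380 and 388. A second Nfkb2 probe set, with 346, 322, 300 and 344, was lowest with 100 nM. Relb, the usual partner of p52, had signals of 265, 222, 255 and 284. On the brightest probe set the 1 nM library was lowest for each of these 3 genes, by -0.26 from ethanol in Relb. Rel, which encodes c-Rel, went the other way, with signals of 95.4, 125, 107 and 102 and a log2 difference of 0.39 for 1 nM against ethanol. For that comparison the median absolute log2 difference was 0.21 over the 4 subunits and 0.11 over all genes. Relb, Rel and Nfkb2 lay between the median and the 75th percentile of signal, a signal of 420. All genes in that range also gave 0.21, so no excess is read from the subunits.

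Of the 5 IkB genes, all 5 lay above their 100 nM level with spironolactone, by 0.01 to 0.31 on the log2 scale, where 49.3% of all genes lay above theirs. In Nfkbiz and Nfkbia the margin was 0.01 and 0.02, and the other Nfkbiz probe sets gave -0.23 and -0.21. Nfkbia, which encodes IkB-alpha and is itself a direct NF-kB target, had signals of 5632, 5240, 5719 and 5808. Its 5 probe sets differed by -0.11 to 0.53 between spironolactone and 100 nM, the largest on its dimmest one. Bcl3, a nuclear IkB protein that acts with p50 and p52 dimers, had signals of 182, 187, 175 and 218. The spironolactone library was the high one, by 0.31 over 100 nM and 0.26 over ethanol.

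Nfkbib, which encodes IkB-beta, had signals of 379, 510, 462 and 482, with ethanol below the other 3 by 0.28 to 0.43 on the log2 scale. Nfkbie, which encodes IkB-epsilon, had signals of 1115, 1070, 1019 and 1146, a range of 1.12-fold. Nfkbiz, a nuclear IkB protein needed for a set of secondary response genes, had signals of 1962, 1936, 1621 and 1630. Both libraries with 100 nM aldosterone were below the other 2, at -0.28 from ethanol without spironolactone and -0.27 with it. Its other probe sets gave -0.30 and 0.09 without spironolactone and -0.53 and -0.12 with it.

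Tnfaip3 and Tnip1 make the ubiquitin-editing inhibitor A20 and its binding partner, and both went against the chemokines. Tnfaip3 had signals of 589, 551, 516 and 488. Tnip1 had signals of 1130, 987, 1103 and 933. In both genes ethanol was highest and spironolactone lowest, at log2 differences of -0.27 and -0.28. A dim second Tnfaip3 probe set, with signals of 60.8, 80.4, 81.8 and 56.3, was also lowest with spironolactone but not highest in ethanol. Each of these promoters held a kB match, as those of Ccl20 and Cxcl1 did.

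Among adaptors and kinases, Irak1 gave the largest difference of the 31 genes. Irak1, the kinase that carries interleukin-1 and Toll-like receptor signals from MyD88 to TRAF6, had signals of 1246, 1281, 439 and 1088. The 100 nM library alone was low, at log2 differences of -1.50 from ethanol and -1.54 from 1 nM, and the spironolactone library stood 1.31 above it. The other 3 Irak1 probe sets did not share this: they gave -0.08, -0.35 and -0.28 against ethanol, and -0.05, 0.07 and 0.21 between spironolactone and 100 nM. The Irak1 value therefore rests on 1 of 4 probe sets, and the cause was not tested.

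**Figure D3:**
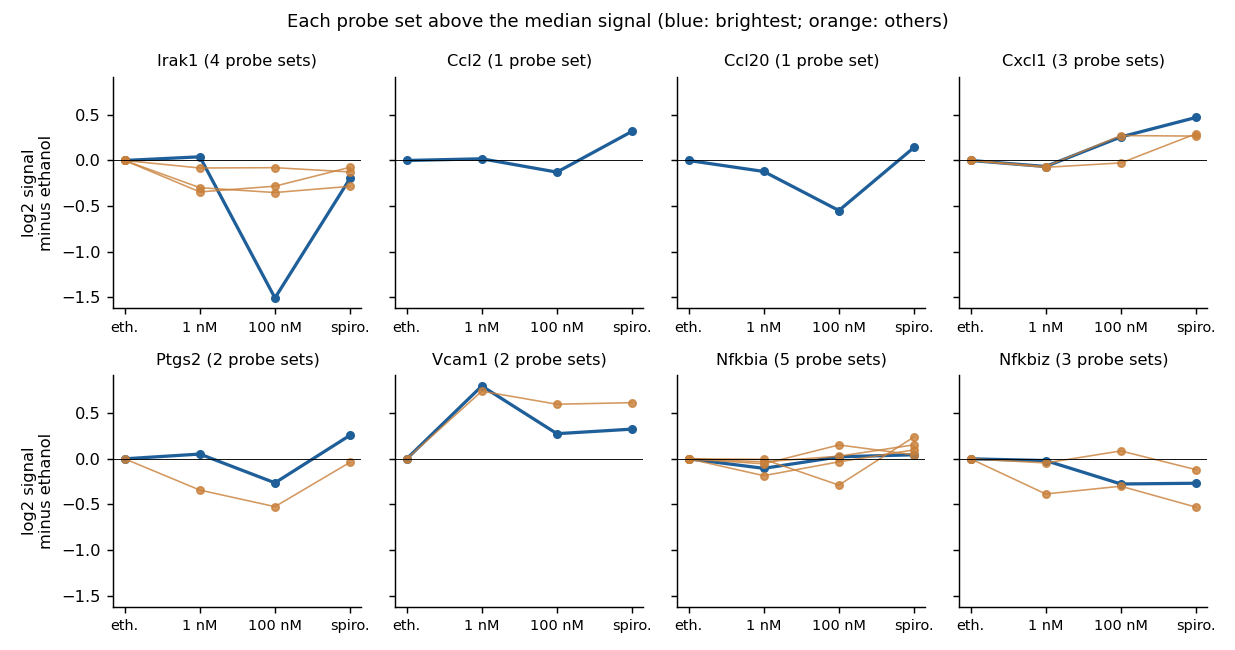
Log2 signal minus that of the ethanol library (vertical axis) for every probe set at or above the median signal of 8 genes, across the ethanol, 1 nM, 100 nM and spironolactone libraries (horizontal axis), with the brightest probe set in blue and the others in orange. The blue Irak1 line drops to -1.50 in the 100 nM library where the other 3 stay at -0.35 or above, whereas both Vcam1 lines are highest at 1 nM, at 0.79 and 0.74.

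Traf1, an adaptor that NF-kB induces, had signals of 93.8, 64.5, 102 and 104, with 1 nM low by -0.54 from ethanol and 100 nM higher than 1 nM by 0.66. Birc3, which encodes the TRAF-bound ubiquitin ligase cIAP2, had signals of 659, 528, 536 and 564, with ethanol above all 3 treated libraries. Birc2, which encodes cIAP1, had signals of 979, 904, 915 and 823, also highest in ethanol and lowest with spironolactone, at -0.25. Traf6, the ubiquitin ligase downstream of IRAK1, had signals of 321, 390, 315 and 382, but its second probe set gave 62.8, 54.6, 93.6 and 63.6, with 100 nM highest instead of lowest. The remaining adaptors and kinases varied little on their brightest probe sets. Myd88 had signals of 831, 877, 829 and 851, Traf2 of 583, 549, 549 and 567, and Ikbkb, the catalytic subunit of the IkB kinase, of 1822, 1651, 1614 and 1648. A second Ikbkb probe set, with 237, 260, 302 and 265, was highest with 100 nM, at 0.35 from ethanol where the first gave -0.18. Its dimmer probe sets at or above or near the limit gave -0.17 and -0.03 for that comparison.

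Few of the 31 genes differed by 1.5-fold, a log2 difference of 0.58, in any comparison. With 100 nM aldosterone against ethanol, which addresses the higher hormone dose, 1 was higher (Il1b) and 1 lower (Irak1), where 2.39% and 1.72% of all genes were. With 1 nM against ethanol 1 was higher (Vcam1) and 0 were lower, against 2.61% and 2.07% of all genes. Between the doses 1 was higher with 100 nM (Traf1) and 1 lower (Irak1), against 2.04% and 1.96%. Read against those shares, none of these counts stands apart.

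With spironolactone against 100 nM, which asks what the antagonist does in the presence of the hormone, 2 were higher (Irak1 and Ccl20) and 0 lower, against 1.83% and 2.51% of all genes. With spironolactone against ethanol 1 was higher (Il1b) and 0 lower, against 2.17% and 2.03%. Signal level matters for such counts: of all genes between the median and the 75th percentile of signal, a signal of 420, 10.8% passed 1.5-fold in either direction between spironolactone and 100 nM, and of those at or above it 0.461% did. Of the listed genes 13 lay in the lower range and 18 in the upper, and Irak1 was the only one of the 18 to pass 1.5-fold in any of the 5 comparisons.

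**Figure D4:**
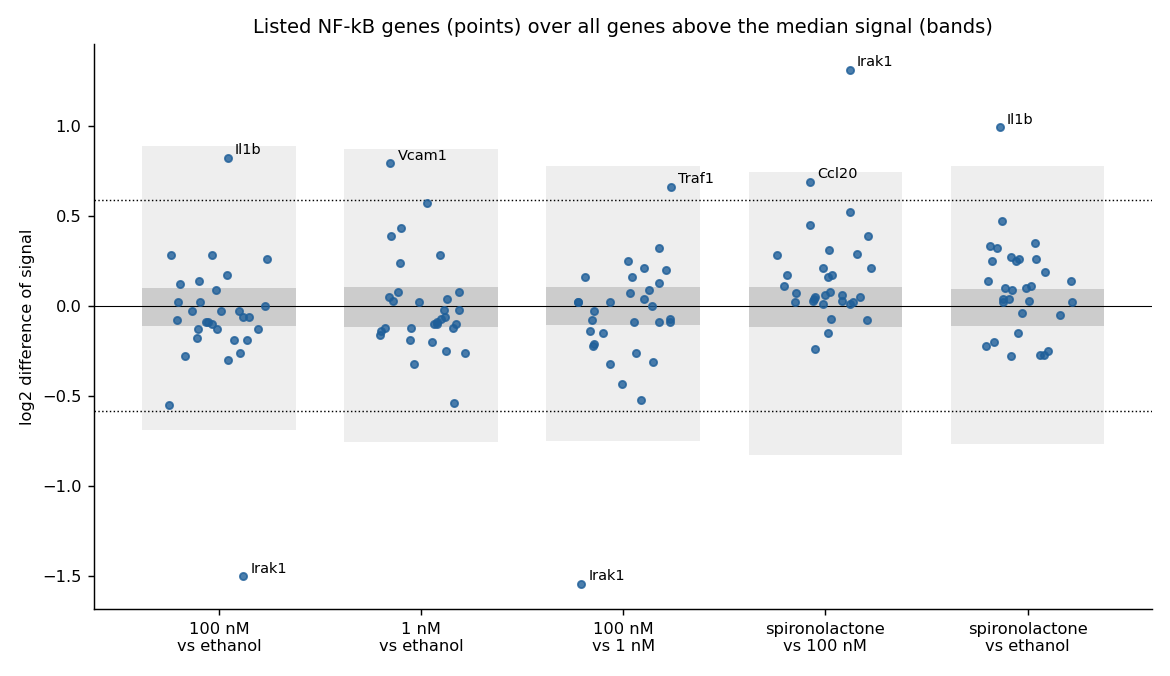
Log2 difference of signal (vertical axis) for each of the 31 listed genes (points, spread sideways for legibility) in the 5 comparisons, over bands that hold the 25th to 75th (dark) and the 1st to 99th (pale) percentile of all 11057 genes. Dotted lines mark 1.5-fold, the genes past it are named, and the points of spironolactone against 100 nM lie above 0 in 27 of 31 genes.

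Small differences in 1 direction were more frequent. Between spironolactone and 100 nM, 27 of the 31 genes lay above 0 (87.1%), against 49.3% of all genes, with a median log2 difference of 0.07 against -0.00. Between spironolactone and ethanol 22 lay above 0 (71.0%), against 48.2%, with a median of 0.10 against -0.01. Dimmer genes carried that count: 12 of the 13 in the lower signal range lay above 0, with a median of 0.25, but 10 of the 18 at or above the 75th percentile did, with a median of 0.03. Between spironolactone and 100 nM, 12 of the 13 and 15 of the 18 lay above 0, with medians of 0.17 and 0.05. With 100 nM against ethanol 10 lay above 0 and 21 below (48.7% of all genes above), with a median of -0.06 against -0.00. With 1 nM against ethanol 12 lay above 0 and 19 below (48.3% of all genes above), with a median of -0.07 against -0.01. These comparisons share libraries, so a single high or low library enters several of them. With the second brightest probe set 20 of the 31 lay above 0 between spironolactone and 100 nM (64.5%), against 47.2% of all genes. In that setting 18 of the 31 had no second probe set at or above the limit and kept their first. The fall from 27 to 20 therefore came from the 13 genes that had one. On their second probe sets only Nfkb2, Nfkbia, Nfkbie, Vcam1 and Ptgs2 lay above 0.

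The size of these differences was near what separates probe sets of a gene on the same arrays. The difference between spironolactone and 100 nM varied by a median of 0.16 on the log2 scale between the 2 brightest probe sets of a gene, over 5218 genes. It exceeded that gap in 13 of the 31 listed genes (41.9%) and in 36.1% of all genes. Against ethanol, the difference with spironolactone exceeded a gap of 0.15 in 17 of the 31 (54.8%), against 36.4% of all genes. Over the 13 listed genes with a second probe set at or above the limit, these median gaps were wider, at 0.22 and 0.20. Both shares of listed genes thus rest on the smaller gap of all genes, and no excess is read from them. Among genes with 2 probe sets that passed 1.5-fold on the brightest, 14.1% also passed in the same direction on the second between spironolactone and 100 nM (9 of 64), and 9.09% between 100 nM and ethanol (6 of 66). Failure to pass on the second probe set, as at Irak1, was thus common among such genes. The gap at Irak1 was nonetheless wide, with -1.50 and -0.08 for 100 nM against ethanol, where the median gap was 0.16. Of all 6936 genes at or above the 75th percentile of signal, -1.50 was the lowest value in that comparison.

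A wider list of 108 other pathway genes, drawn up by name, gave shares nearer to those of all genes. Of the 77 at or above the median signal, 23 were highest with spironolactone and 17 with 100 nM, and 43 of the 77 (55.8%) lay above their 100 nM level with spironolactone. Of its 4 other chemokines at or above the median, 1 was highest with spironolactone. Its inhibitors of the pathway were highest there in 9 of 19 cases and lowest in 0, against 24.0% and 25.0% of all genes, and 7 of the 19 lay below their 100 nM level. The inhibitors with the largest differences between spironolactone and 100 nM were Irak3 and Tank. Tank, an adaptor that restrains TRAF signalling, had signals of 1769, 1520, 1403 and 1985. Irak3, the inhibitory relative of Irak1, had signals of 107, 86.6, 102 and 150. Both were highest with spironolactone, by 0.50 and 0.56 over 100 nM on the log2 scale, in contrast to Tnfaip3 and Tnip1.

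The 12 receptor genes that feed the pathway lay between -0.20 and 0.27 on the log2 scale for spironolactone against 100 nM, with a median of -0.02. Tnfrsf1a, the main receptor of tumour necrosis factor, had signals of 1128, 1100, 1054 and 1049. Tlr4, the receptor of bacterial lipopolysaccharide, had signals of 512, 570, 560 and 547. Il1r1, the interleukin-1 receptor, was dimmer, with signals of 91.8, 91.9, 66.6 and 62.5, and both libraries with 100 nM aldosterone were the low ones.

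Past 1.5-fold, the other pathway genes gave 0 higher and 1 lower with 100 nM against ethanol. That gene was Ticam1, the adaptor TRIF of Toll-like receptors, with signals of 146, 112, 92.9 and 79.3; it differed by -0.66, and by -0.88 between spironolactone and ethanol, where it was again the only one. With 1 nM against ethanol 2 were lower, the second tumour necrosis factor receptor Tnfrsf1b (-0.83) and the IkB kinase relative Ikbke (-0.70). Between the doses Saa3, an acute phase protein, was higher with 100 nM (1.06, from a 1 nM signal of 44.9 that lay under the limit) and so was Tnfrsf1b (0.76), while the cytokine Il15 was lower (-0.60). Between spironolactone and 100 nM 1 was lower, Il34 (-0.59), a ligand of the receptor that Csf1 binds, with signals of 134, 156, 201 and 133.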

How the data were processed

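The authors deposited an intensity for each probe set, on a linear scale. Per the submitters' processing notes these come from MAS5. The sources used here give no MAS5 version, scaling target or detection calls. The arrays were hybridised with biotin-labelled cRNA made from 250 ng of total RNA. All 4 value columns belong to the series, and 0 other sample columns were present. Of 45101 probe sets, 64 were controls, 34945 had 1 gene symbol in the platform annotation, 932 several and 9160 none; only the first kind was named. The symbols of 40 listed genes were matched by Entrez identifier to RefSeq (GRCm38.p6), which changed 0 of them. The files name no genome build, and coordinates are those of the RefSeq promoter table.

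Each gene took its brightest probe set by mean log2 signal over the 4 libraries, and genes at or above the median of non-control probe sets (55.9) entered. The filter uses the mean over all libraries, so a gene high in 1 library can enter through it. Differences are of log2 signal with no pseudocount or further scaling. Signals of different probe sets are not compared as levels. With 1 library per treatment there is no p-value or standard error, and precision is limited by the number of arrays. Named genes were all 31 listed genes, and up to 3 other pathway genes past 1.5-fold in each direction and comparison; receptors, Tank and Irak3 were named after their values were seen. The members and lists were chosen with earlier results of these data known. Counts of the highest library and of signs were chosen after seeing the data. The 7 alternatives were quantile normalization, a pseudocount of 16, the median over probe sets, the second brightest probe set, no filter, a filter at the 75th percentile, and signals under the filter raised to it. With the second brightest probe set, genes without one at or above the filter kept their brightest. Python 3.11.15, pandas 2.3.3, numpy 2.4.6 and matplotlib 3.10.9 were used.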

Additional observations from a re-analysis of the deposited data

How the results depend on the processing

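Counts of listed genes past 1.5-fold were small and moved with most choices. No share of all genes under the same alternative is set beside these counts, so nothing about the listed genes is read from them. Dimmer genes pass 1.5-fold more often, as given above. Without the filter, which adds 9 dim genes, 4 were higher and 2 lower with 100 nM aldosterone against ethanol, 5 higher with 1 nM against ethanol, 3 higher and 5 lower with 100 nM against 1 nM, 5 higher and 3 lower with spironolactone against 100 nM, and 5 higher and 3 lower with spironolactone against ethanol. With the filter at the 75th percentile, which leaves 18 genes, the higher counts were 0, 0, 0, 1 and 0 in that order of comparisons. With the second brightest probe set the higher counts were 2 for 100 nM against ethanol, 2 for 100 nM against 1 nM, 1 for spironolactone against 100 nM and 2 for spironolactone against ethanol, and the lower count was 0 for 100 nM against ethanol and against 1 nM. With the median over probe sets these lower counts were 0 as well, and 1 was higher with spironolactone against 100 nM. When dimmer signals were raised to the filter, 0 were higher with 100 nM or with spironolactone against ethanol. Quantile normalization gave 1 lower with 1 nM against ethanol, and a pseudocount of 16 gave 0 higher with 100 nM against 1 nM; the cause was not tested. The median difference of 100 nM from 1 nM became 0.02 with the median over probe sets, 0.02 with the second brightest probe set and 0.01 with the filter at the 75th percentile.

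On the second brightest probe set the Irak1 differences of 100 nM from 1 nM (0.00) and of spironolactone from 100 nM (-0.05) all but vanished. Their sign changed only by a small margin around 0. Of 140 values of single genes under an alternative, 124 moved by less than the median gap between probe sets and 14 by more. The last 2, those of Irak1, changed sign. Many of the 124 could not move. A change of filter leaves a gene's difference as it was, which holds for 22 values without the filter and 8 at the 75th percentile. Genes with a single probe set at or above the limit also keep theirs under the median or second brightest probe set. Of the counts chosen after seeing the data, 16 genes were highest with spironolactone after quantile normalization. With the second brightest probe set 13 were, in a setting where 18 of the 31 genes kept their brightest. With the filter at the 75th percentile 8 of the 18 genes left were highest with spironolactone (44.4%), against 25.3% of all genes, as were 3 of 3 chemokines. There 15 of the 18 lay above 0 between spironolactone and 100 nM (83.3%), against 51.5% of all genes. No paired analysis was possible because each treatment has 1 library, and for the same reason none could be left out.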
